A study of Macaca fascicularis with 16 samples.

Results

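Glycolysis turns glucose into pyruvate in the cytosol, and lactate dehydrogenase can then convert pyruvate to lactate so that the pathway keeps running. Blood leukocytes rely on it when they are activated, and monocytes and granulocytes use it heavily. In such cells the first steps (glucose entry, hexokinase and phosphofructokinase) are known to hold most of the control. The enzymes from aldolase to enolase are abundant and work close to equilibrium. Described here are 9 genes of this pathway, taken by symbol from the per-animal count tables: SLC2A3 for glucose entry, HK2 and PFKFB3 for the controlled first steps, ALDOA, TPI1, GAPDH, PGK1 and ENO1 for the middle and lower pathway, and LDHA for lactate. All 9 were found among the 23602 gene symbols of the tables, and all 9 passed the filter on low counts, which left 11545 genes for testing.

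The cells were unfractionated peripheral blood mononuclear cells (PBMC) of 4 Mauritian-origin cynomolgus macaques (Macaca fascicularis), named LG04, LG11, LG12 and LG15. Every animal received NKTT320, an antibody directed at the invariant T-cell receptor of natural killer T cells, and the study asked what this does in the living animal. The 16 total RNA libraries fall into 4 groups of 4, sampled before treatment and 30 minutes, 2 hours and 1 day after NKTT320, with every animal in every group. Untreated animals were not analysed here, so the antibody, the elapsed time and the repeated bleeding cannot be told apart. The sources used here give neither dose nor age. PBMC hold lymphocytes and monocytes, and the density gradient also leaves some platelets, red cells and granulocytes.

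Total counts ran between 1417467 and 8582852 per library, and 4 libraries held fewer than 2000000 (LG12 at 30 minutes, LG15 at 2 hours, LG04 and LG12 at 1 day). Globin genes took 0.025% to 48.7% of the counts, so levels are given as CPM (counts scaled to library size), adjusted by the TMM method of edgeR, which reduces the effect of a few dominant genes. The defining lymphocyte markers were present in every library (CD3E 66.3 to 202 CPM, MS4A1 33.0 to 356 CPM). CD14 of monocytes had a count in every library (0.850 to 72.9 CPM), but its lowest value, in LG12 at 30 minutes, lay below the floor of 3 counts. Among the marker lists, DEFA4 of neutrophils and GP1BB of platelets had no count in any library. The 1 day library of LG04 stood apart from its own animal (correlation of its deviations with the pre-treatment library of LG04 0.061, the lowest of 24 within-animal pairs), and by chi-square per gene it was nearest to the 1 day library of LG15 (11.3, against 88.1, 127 and 158 for the pre-treatment, 30 minute and 2 hour libraries of LG04). The 1 day library of LG15 was likewise nearer to that of LG04 than to the other libraries of LG15 (36.9 to 139). This measure was not corrected for depth, and both libraries had the highest sums of platelet markers (32515 CPM in LG04 and 26686 CPM in LG15). Whether the label of the LG04 library is right was not tested. The main 1 day values are also given without that library, and no fit left out only the 1 day library of LG15. A series-wide table lists the 1 day counts of LG04 under its 2 hour column too; the values of its own table, which differ between these times, are used here. The 9 genes together took 0.102% to 0.269% of the counts of a library. HK2 was the least counted, with 12 to 238 counts, against a floor of 3 counts that corresponds to 0.352 to 1.97 CPM on the same TMM-adjusted scale; such floors cover counting error only.

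Levels of different genes were compared per length, with the FPKM values that the authors deposited. Before treatment the order by mean was GAPDH (251 ± 66.2 FPKM), ALDOA (168 ± 45.4), ENO1 (159 ± 27.3), PGK1 (93.9 ± 19.4), TPI1 (74.0 ± 20.5), LDHA (65.5 ± 19.6), SLC2A3 (31.3 ± 11.5), PFKFB3 (11.5 ± 5.59) and HK2 (2.17 ± 1.31; SD, n = 4 each). Among these 9 genes, the 6 enzymes from aldolase to lactate dehydrogenase thus had higher means than the 3 genes of the first steps. The order by mean was the same at 30 minutes, 2 hours and 1 day, except that LDHA stood above TPI1 at 2 hours and 1 day. Neighbours in this order whose means differed by less than the smaller of their SDs were TPI1 and LDHA at every time, ALDOA and ENO1 before treatment and at 30 minutes, GAPDH and ALDOA at 30 minutes and 2 hours, PGK1 and LDHA at 2 hours and 1 day, and SLC2A3 and PFKFB3 at 2 hours, so their order is not resolved. The other hexokinases were higher than HK2 before treatment: HK1, the housekeeping isoform, averaged 66.1 ± 28.4 FPKM and HK3, a myeloid isoform named after its values were seen, 48.6 ± 34.4 FPKM (SD, n = 4 each). SLC2A1, the widely expressed glucose transporter, averaged 6.99 ± 3.87 FPKM, below the 31.3 FPKM of SLC2A3.

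At 2 hours against pre-treatment all 9 genes had a fitted log2 fold change above 0, with a median of 0.35 against 0.021 over all genes tested, of which 52.7% lay above 0. None of the 9 passed the quasi-likelihood F test of edgeR at an adjusted p of 0.05, where 0.0% of all genes were called. At an unadjusted p under 0.05 the test gave 3 of the 9, PFKFB3, LDHA and ALDOA, all higher, against 4.17% of all genes. DESeq2, run as an alternative, called 1 of the 9, PFKFB3, where 0.684% of all genes were called. Higher in 4 of 4 animals on the TMM scale were PFKFB3, LDHA, HK2 and ENO1, against 8.06% of all genes. Deposited FPKM is scaled to gene length and library size, not by the TMM factors used here. By that measure all 4 of these genes were lower in LG04 at 2 hours than before treatment. The values were 15.3 against 19.9 for PFKFB3, 46.3 against 50.2 for LDHA, 2.53 against 3.95 for HK2 and 102 against 129 for ENO1. Globin genes took 48.7% of the counts of LG04 at 2 hours and 20.3% before treatment, with TMM factors of 0.460 and 0.940. Their part in this contrast was not tested. The median difference over the 9 genes was 0.44 in LG04, 0.18 in LG11, 0.34 in LG12 and 0.58 in LG15 on the log2 scale.

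**Figure D1:**
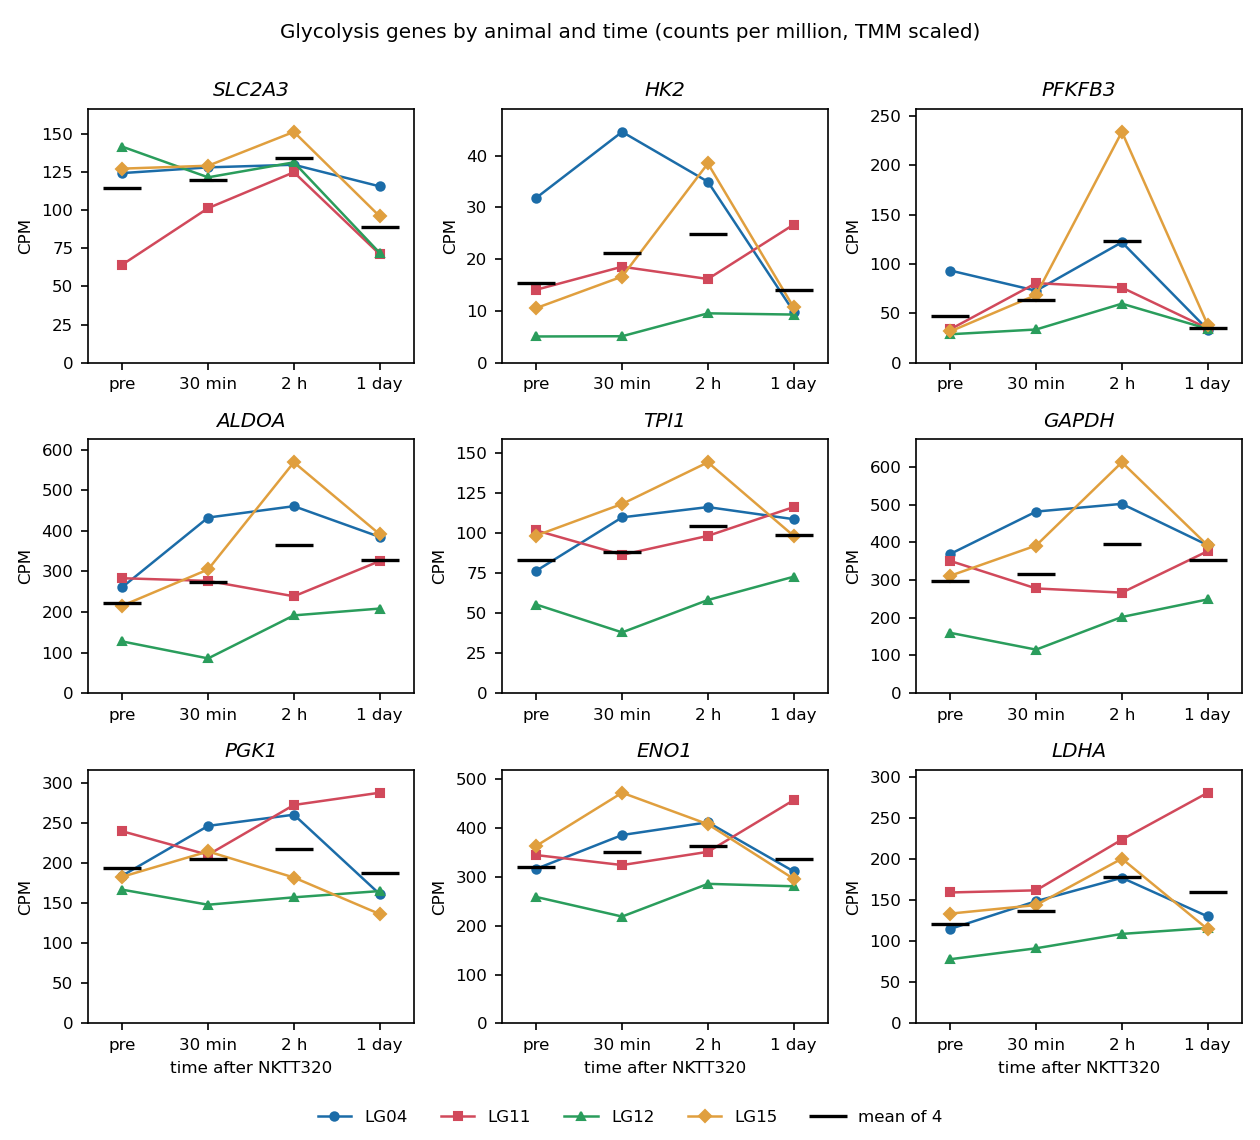
Level of each of the 9 genes (y axis, TMM-scaled CPM, linear from 0) at pre-treatment, 30 minutes, 2 hours and 1 day after NKTT320 (x axis). Lines and symbols are the 4 animals and black bars are the means of 4. PFKFB3 at 2 hours lies above its pre-treatment level in every animal on this scale, and LG15 at 2 hours is highest at 234 CPM. In LG04 the deposited FPKM of PFKFB3, not scaled by TMM, was 19.9 before treatment and 15.3 at 2 hours. Globin genes took 20.3% and 48.7% of the counts of these libraries.

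SLC2A3 encodes GLUT3, a high-affinity glucose transporter of leukocytes and neurons. In LG04, LG11, LG12 and LG15, in that order, it stood at 124, 64.3, 142 and 127 CPM before treatment and at 128, 101, 122 and 129 CPM at 30 minutes. The values were 129.8, 125, 131 and 151 CPM at 2 hours and 116, 71.1, 72.0 and 96.0 CPM at 1 day. On the TMM scale the libraries of 2 hours lay close together, and all of them were above all libraries of 1 day. By deposited FPKM, not scaled by TMM, they were not, since LG04 was at 16.7 at 2 hours and 22.6 at 1 day. Globin genes took 48.7% and 13.6% of the counts of these libraries. At 2 hours against pre-treatment the log2 fold change was 0.28 ± 0.17 (SE; unadjusted p = 0.136, edgeR), and LG11, whose pre-treatment library was low, set most of it, with 0.054 without LG11. At 1 day against pre-treatment it was -0.35 ± 0.18 (unadjusted p = 0.0699, adjusted p = 0.429, edgeR), lower in 3 of 4 animals, and -0.46 without the 1 day library of LG04. SLC2A14, a near-identical copy whose reads cannot be cleanly separated from those of SLC2A3, had log2 fold changes of 0.28 ± 0.21 at 2 hours and -0.39 ± 0.22 at 1 day.

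HK2 is the inducible hexokinase that phosphorylates glucose on entry and can bind to mitochondria. In LG04, LG11, LG12 and LG15 it stood at 31.8, 14.1, 5.05 and 10.5 CPM before treatment and at 44.6, 18.5, 5.10 and 16.6 CPM at 30 minutes. The values were 34.9, 16.2, 9.53 and 38.5 CPM at 2 hours and 9.86, 26.7, 9.29 and 10.7 CPM at 1 day. The 4 animals did not share a course, since the highest library was that of 30 minutes in LG04, of 1 day in LG11 and of 2 hours in LG12 and LG15, and the groups overlapped at all times. The log2 fold change against pre-treatment was 0.44 ± 0.42 at 30 minutes, 0.79 ± 0.42 at 2 hours (unadjusted p = 0.0847, edgeR) and 0.19 ± 0.44 at 1 day. The 1 day value was 0.61 without the 1 day library of LG04, 1.09 with the mean of platelet markers as a further term of the fit (a platelet term) and -0.29 with a monocyte term made the same way. Platelet markers were themselves higher at 1 day in every animal, so the platelet term overlaps with the time term.

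PFKFB3 makes fructose 2,6-bisphosphate, the strongest allosteric activator of phosphofructokinase, and its mRNA is known to be induced quickly by activating stimuli. It varied most with time. In LG04, LG11, LG12 and LG15 it stood at 93.3, 33.8, 28.8 and 31.6 CPM before treatment and at 72.9, 80.6, 33.6 and 68.6 CPM at 30 minutes. The values were 122, 76.1, 59.7 and 234 CPM at 2 hours and 33.5, 34.7, 34.2 and 38.3 CPM at 1 day. LG04 started high, LG11 stood as high at 30 minutes as at 2 hours, and at 1 day all 4 animals lay within 33.5 to 38.3 CPM. The 2 hour libraries overlapped with those of pre-treatment through LG04.

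The mean of PFKFB3 was 123 ± 78.5 CPM at 2 hours and 46.9 ± 31.0 CPM before treatment (SD, n = 4 each). The edgeR fit gave a log2 fold change of 1.36 ± 0.37 (SE; 2.56-fold), with an unadjusted p of 0.00279, an adjusted p of 0.324 and rank 98 of 11545 genes by p. DESeq2 gave 1.36 with an adjusted p of 0.0430, and over all alternatives that adjusted p lay between 0.0430 and 1.00. LG15 at 2 hours, one of the shallow libraries, carried much of the size: the value was 0.82 without LG15, 1.77 without LG04 and 0.91 without the libraries of under 2000000 counts. At 30 minutes the log2 fold change was 0.50 ± 0.36 and at 1 day -0.29 ± 0.37, which was -0.097 without the 1 day library of LG04 and 0.15 without LG04 altogether.

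ALDOA, the aldolase of muscle and most blood cells, splits fructose 1,6-bisphosphate into triose phosphates. In LG04, LG11, LG12 and LG15 it stood at 261, 283, 127 and 216 CPM before treatment and at 433, 277, 85.4 and 305 CPM at 30 minutes. The values were 461, 239, 192 and 569 CPM at 2 hours and 385, 325, 208 and 392 CPM at 1 day. LG11 went against the other animals at 2 hours, and the groups overlapped at every time. The log2 fold change against pre-treatment was 0.18 ± 0.25 at 30 minutes. At 2 hours it was 0.65 ± 0.25 (unadjusted p = 0.0219, adjusted p = 0.595, edgeR), higher in 3 of 4 animals, and 0.93 without LG11. At 1 day it was 0.57 ± 0.25 (unadjusted p = 0.0407, adjusted p = 0.333, edgeR), higher in 4 of 4 animals, and 0.64 without the 1 day library of LG04.

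TPI1 interconverts the triose phosphates, and GAPDH oxidises glyceraldehyde 3-phosphate and is often used as a reference gene. TPI1 ranged from 37.8 CPM in LG12 at 30 minutes to 144 CPM in LG15 at 2 hours. Its log2 fold changes were 0.024 ± 0.18 at 30 minutes, 0.29 ± 0.18 at 2 hours and 0.27 ± 0.18 at 1 day, each against pre-treatment. In LG04, LG11, LG12 and LG15 GAPDH stood at 369, 350.4, 159.8 and 311 CPM before treatment, 481, 277, 115 and 391 CPM at 30 minutes, 502, 266, 202 and 612 CPM at 2 hours and 392, 376, 248 and 392 CPM at 1 day. LG12 was the lowest animal at all 4 times, and the highest of the 16 libraries was 5.31 times the lowest. The log2 fold change of GAPDH was -0.0095 ± 0.22 at 30 minutes, 0.35 ± 0.23 at 2 hours and 0.30 ± 0.22 at 1 day against pre-treatment, with unadjusted p of 0.967, 0.142 and 0.209 (edgeR). Without the 1 day library of LG04 the 1 day values were 0.41 for GAPDH and 0.29 for TPI1. Processed copies of GAPDH, TPI1 and other glycolytic genes are common in primate genomes, so reads shared with them are uncertain.

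PGK1 makes the first ATP of the pathway, and ENO1 forms phosphoenolpyruvate. Their spans over the 16 libraries were the narrowest of the 9, with the highest library 2.11 times the lowest for PGK1 and 2.16 times for ENO1. PGK1 had log2 fold changes against pre-treatment of 0.087 ± 0.17 at 30 minutes, 0.15 ± 0.17 at 2 hours and -0.070 ± 0.17 at 1 day. The corresponding values of ENO1 were 0.10 ± 0.17, 0.18 ± 0.17 and 0.075 ± 0.17. Each of these values was about as large as its error or smaller. Without the 1 day library of LG04 the 1 day values were 0.033 for PGK1 and 0.14 for ENO1.

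LDHA encodes the subunit of lactate dehydrogenase that favours the step from pyruvate to lactate. In LG04, LG11, LG12 and LG15 it stood at 115, 159, 78.1 and 134 CPM before treatment and at 149, 162, 91.4 and 144 CPM at 30 minutes. The values were 177, 224, 109 and 200.3 CPM at 2 hours and 130.1, 281, 116 and 115 CPM at 1 day. On the TMM scale the step at 2 hours was alike in all 4 animals, with log2 differences of 0.62, 0.49, 0.48 and 0.58. The animals differed enough in level for the groups to overlap. By deposited FPKM LDHA was higher at 2 hours in LG11, LG12 and LG15 but lower in LG04 (46.3, against 50.2 before treatment). In LG04 globin genes took 48.7% of the counts at 2 hours and 20.3% before treatment, and FPKM was not scaled by TMM. The fit gave 0.55 ± 0.17 (SE; unadjusted p = 0.00815, adjusted p = 0.463, rank 200 of 11545, edgeR), and 0.51 to 0.55 when each animal was left out in turn. At 30 minutes the value was 0.19 ± 0.17, and at 1 day 0.37 ± 0.18 (unadjusted p = 0.0548, adjusted p = 0.384, edgeR), 0.46 without the 1 day library of LG04.

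**Figure D2:**
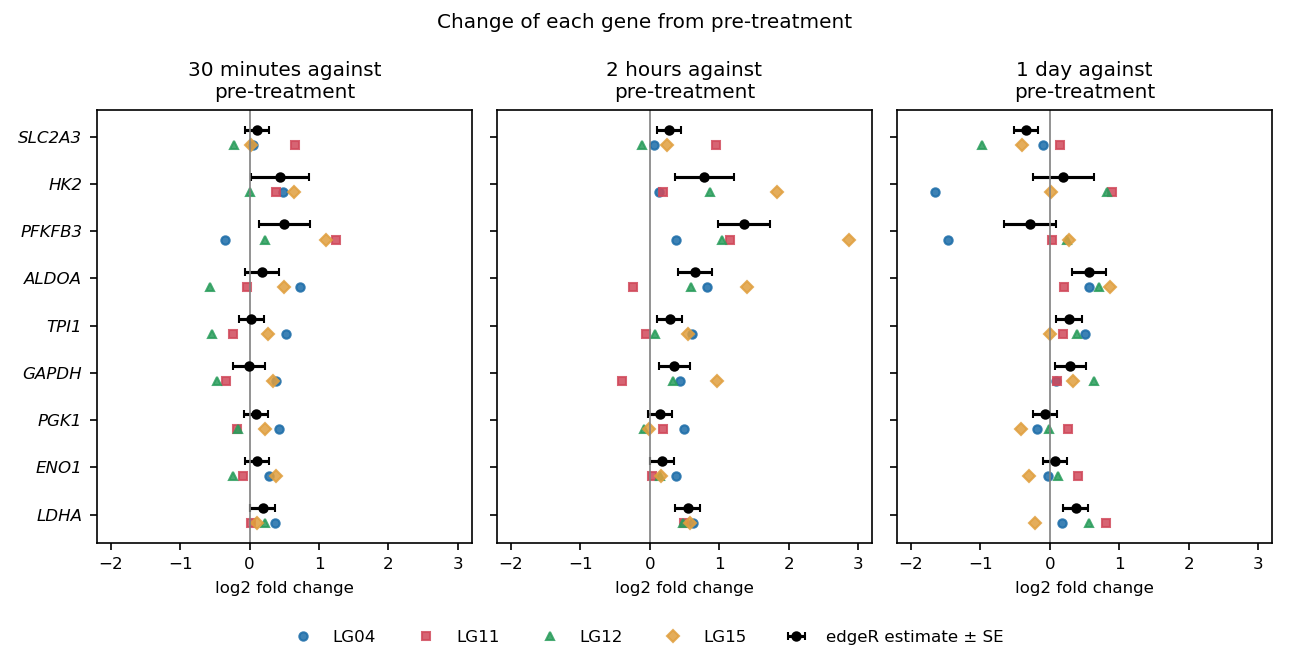
Log2 fold change of each gene against pre-treatment (x axis, log2) at 30 minutes, 2 hours and 1 day after NKTT320, with genes in pathway order down the page. Black circles with bars are the edgeR estimates ± SE and coloured symbols are the 4 animals. At 2 hours the animals lie close together on the TMM scale for LDHA (0.48 to 0.62) and far apart for PFKFB3 (0.38 to 2.87). By deposited FPKM, not scaled by TMM, both genes were lower in LG04 at 2 hours than before treatment.

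The earlier and later steps of the course were less uniform. At 30 minutes against pre-treatment edgeR called 0 of the 9 (0.0% of all genes), with 0 at an unadjusted p under 0.05 and 0 by DESeq2 (0.121% of all genes). Of the 9, 8 had a fitted value above 0, against 54.0% of all genes, but the median over the 9 genes was above 0 in LG04 (0.38) and LG15 (0.33) and below 0 in LG11 (-0.034) and LG12 (-0.22). LDHA and HK2 were higher in 4 of 4 animals (6.21% of all genes). By deposited FPKM LDHA was lower at 30 minutes than before treatment in LG04 (48.3 against 50.2) and LG11 (83.5 against 89.7). Globin genes took 38.2% against 20.3% of the counts in LG04 and 10.4% against 4.68% in LG11 at these times. At 1 day against pre-treatment edgeR called 0 of the 9, against 0.225% of all genes, and DESeq2 called 0 of the 9, against 3.46%. ALDOA alone had an unadjusted p under 0.05 (8.47% of all genes, counting higher values). ALDOA and GAPDH were higher in 4 of 4 animals (9.83% of all genes), and 6 of the 9 lay above 0 (50.0% of all genes), with a median of 0.19. By deposited FPKM GAPDH was lower at 1 day than before treatment in LG04 (247 against 260) and LG15 (228 against 271). Without the 1 day library of LG04 the median over the 9 genes was 0.29, against 0.025 over all genes tested, with 7 of the 9 above 0. In that edgeR fit 3 of the 9 had an unadjusted p under 0.05 (ALDOA and LDHA higher, SLC2A3 lower), as did 1471 of 11910 genes.

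Between successive times, all 9 genes had a fitted value above 0 at 2 hours against 30 minutes (52.4% of all genes), with a median of 0.35, and LDHA, TPI1 and SLC2A3 were higher in 4 of 4 animals (8.54% of all genes). That median was 0.058, with 7 of the 9 above 0, without the libraries of under 2000000 counts, and 0.073, with 6 of the 9 above 0, with the mean of the monocyte markers as a further term. By deposited FPKM, not scaled by TMM, LDHA, TPI1 and SLC2A3 were lower in LG04 at 2 hours than at 30 minutes. Globin genes took 48.7% and 38.2% of the counts of these libraries. All 17 monocyte markers and all 10 markers of natural killer cells (8 of these at an unadjusted p under 0.05, edgeR) had a fitted value above 0 here. All 15 T-cell markers and all 9 tested B-cell markers had one below 0. Against pre-treatment all 10 natural killer cell markers lay below 0 at 30 minutes (median -0.79, 9 at an unadjusted p under 0.05, edgeR). At 2 hours 7 of them did (median -0.064), so their higher values here follow lower ones at 30 minutes. The part of these cell types in the result was not tested beyond the monocyte term. EdgeR called 0 of the 9 (0.0% of all genes) and DESeq2 0 of the 9 (0.026%). PFKFB3 had the only unadjusted p under 0.05 there (0.0343, with 2.31% of all genes past it and higher), at 0.86 ± 0.36. At 1 day against 2 hours edgeR again called 0 of the 9 (0.104% of all genes), and 0 of the 9 had a fitted value above 0 (48.1% of all genes), with a median of -0.17. The animals were divided: the median over the 9 genes was -0.40 in LG04 and -0.64 in LG15, but 0.33 in LG11 and 0.070 in LG12. Without LG15 5 of the 9 lay above 0, with a median of 0.00095, and without the 1 day library of LG04 2 did, with a median of -0.086. With a monocyte term or a platelet term 4 of the 9 lay above 0, and in this comparison 0 of 17 monocyte markers and 10 of 10 tested platelet markers had a value above 0. PFKFB3 was lower in 4 of 4 animals (9.16% of all genes), at 35.2 ± 2.15 CPM at 1 day and 123 ± 78.5 CPM at 2 hours (SD, n = 4 each). Its log2 fold change was -1.65 ± 0.38 (unadjusted p = 0.000768, adjusted p = 0.161, rank 53, edgeR), and DESeq2 called it at -1.62 with an adjusted p of 0.00513, where 1.05% of all genes were called. SLC2A3 was also lower in 4 of 4 animals, at 88.7 ± 21.4 CPM at 1 day and 134 ± 11.7 CPM at 2 hours, with a log2 fold change of -0.62 ± 0.18 (unadjusted p = 0.00363, adjusted p = 0.221, edgeR). For both genes all 4 libraries of 1 day lay below all 4 of 2 hours on the TMM scale, as did 1.03% of all genes, and 5.48% of all genes were lower with an unadjusted p under 0.05. By deposited FPKM this held for PFKFB3 (at most 9.43 at 1 day, at least 15.3 at 2 hours). It did not hold for SLC2A3, which in LG04 was 22.6 at 1 day and 16.7 at 2 hours, with globin at 13.6% and 48.7% of the counts. Without the 1 day library of LG04 the log2 fold changes were -1.48 for PFKFB3 and -0.73 for SLC2A3.

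A joint test of any difference among the 4 times called 0 of the 9 in edgeR (0.104% of all genes). PFKFB3 (0.00268), SLC2A3 (0.0250) and LDHA (0.0428) had an unadjusted p under 0.05 in it, as did 12.2% of all genes. DESeq2 called PFKFB3 alone of the 9, with an adjusted p of 0.00514 (3.84% of all genes). Most of the variation of these genes lay between animals. Of the variance of log2 CPM over the 16 libraries, the animals took 74.4% for GAPDH, 73.5% for TPI1, 64.5% for ALDOA and 63.9% for LDHA, where the median over all genes tested was 46.4%. PFKFB3 and SLC2A3 were the other way round: the times took 54.1% and the animals 19.4% for PFKFB3, and 39.8% and 33.0% for SLC2A3, beside a median of 12.1% for the times over all genes.

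Marker RNA of some cell types moved along with several of these values. In bulk PBMC, fewer cells of a type and less RNA per cell cannot be told apart. The summed level of 17 monocyte markers was higher at 2 hours than before treatment in 4 of 4 animals (7459, 7606, 1897 and 9072 CPM at 2 hours and 4489, 4015, 1055 and 2701 CPM before treatment in LG04, LG11, LG12 and LG15). All 17 had a fitted value above 0 at 2 hours, with a median log2 fold change of 0.92, and edgeR called none of them at the adjusted threshold (8 had an unadjusted p under 0.05). The summed level of 15 T-cell markers was 1348 to 2245 CPM at 2 hours and 1776 to 2349 CPM before treatment, with 13 of 15 below 0. Across the 16 libraries, after subtracting each animal's mean, log2 CPM correlated with the monocyte score at r = 0.93 for HK2, 0.78 for LDHA, 0.77 for ENO1, 0.73 for GAPDH, 0.70 for PFKFB3 and 0.14 for SLC2A3, as a description over libraries that share animals. With the mean of the monocyte markers as a further term of the fit, the 2 hour value was 0.90 for PFKFB3, 0.38 for SLC2A3, 0.30 for LDHA and 0.28 for ALDOA. It was -0.19 for HK2, -0.050 for GAPDH, -0.087 for ENO1, -0.085 for PGK1 and -0.00062 for TPI1 in that fit.

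Neutrophils and platelets carry glycolytic transcripts as well. The summed level of 13 neutrophil markers was 104 to 4662 CPM before treatment and 111 to 7328 CPM at 30 minutes. It was 99.4 to 2088 CPM at 2 hours and 134 to 319 CPM at 1 day. The 4662 CPM were those of LG04, whose pre-treatment PFKFB3 was also the highest of that group. In LG04 the sum was 7328 CPM at 30 minutes and 924 CPM at 2 hours, where PFKFB3 stood at 72.9 and 122 CPM. The part of neutrophils in the result was not tested. The summed level of 11 platelet markers was 799 to 32515 CPM at 1 day and 132 to 9852 CPM before treatment, higher in 4 of 4 animals. With a platelet term the 1 day value of PFKFB3 was 0.64 and that of SLC2A3 was -0.39, so the direction of PFKFB3 at 1 day differed with that term. All 10 tested platelet markers were higher at 1 day with an unadjusted p under 0.05 (edgeR). The platelet term thus overlaps with the 1 day term, and that fit cannot cleanly separate them. In it 520 genes had an unadjusted p under 0.05 at 1 day, against 1570 in the main fit (edgeR).

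The enzymes that set fructose 2,6-bisphosphate are the closest relatives of PFKFB3 in function. PFKFB2 and PFKFB4 are kinase isoforms of the same family, and TIGAR, listed in the tables under its older symbol C12orf5, breaks the activator down. A list of 6 genes held these 3, PFKFB1 and the fructose 1,6-bisphosphatases FBP1 and FBP2, which act on the product of phosphofructokinase. Of the 6, 3 were tested, PFKFB1 and FBP2 had no count in any library, and edgeR called none in any comparison. PFKFB2 was at 39.2, 24.0, 14.9 and 62.5 CPM at 2 hours in LG04, LG11, LG12 and LG15, and at 38.0, 8.57, 9.91 and 16.5 CPM before treatment. Its log2 fold change was 1.03 ± 0.41 (unadjusted p = 0.0262, adjusted p = 0.603, edgeR). PFKFB4 had 1.03 ± 0.46 (unadjusted p = 0.0440, adjusted p = 0.656, edgeR), also higher in 4 of 4 animals. TIGAR was at 11.7, 28.2, 17.8 and 15.5 CPM at 2 hours and 28.8, 32.3, 24.9 and 20.0 CPM before treatment, lower in 4 of 4 animals, with -0.58 ± 0.22 (unadjusted p = 0.0237, adjusted p = 0.595, edgeR). Within a library the count of PFKFB3 was 10.4, 2.70, 3.37 and 15.1 times that of TIGAR at 2 hours, and 3.24, 1.05, 1.16 and 1.58 times before treatment, a ratio chosen after its values were seen and not tested. At 1 day against 2 hours PFKFB2 was lower in 4 of 4 animals, at -1.47 ± 0.44 (unadjusted p = 0.00524, adjusted p = 0.247, edgeR).

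**Figure D3:**
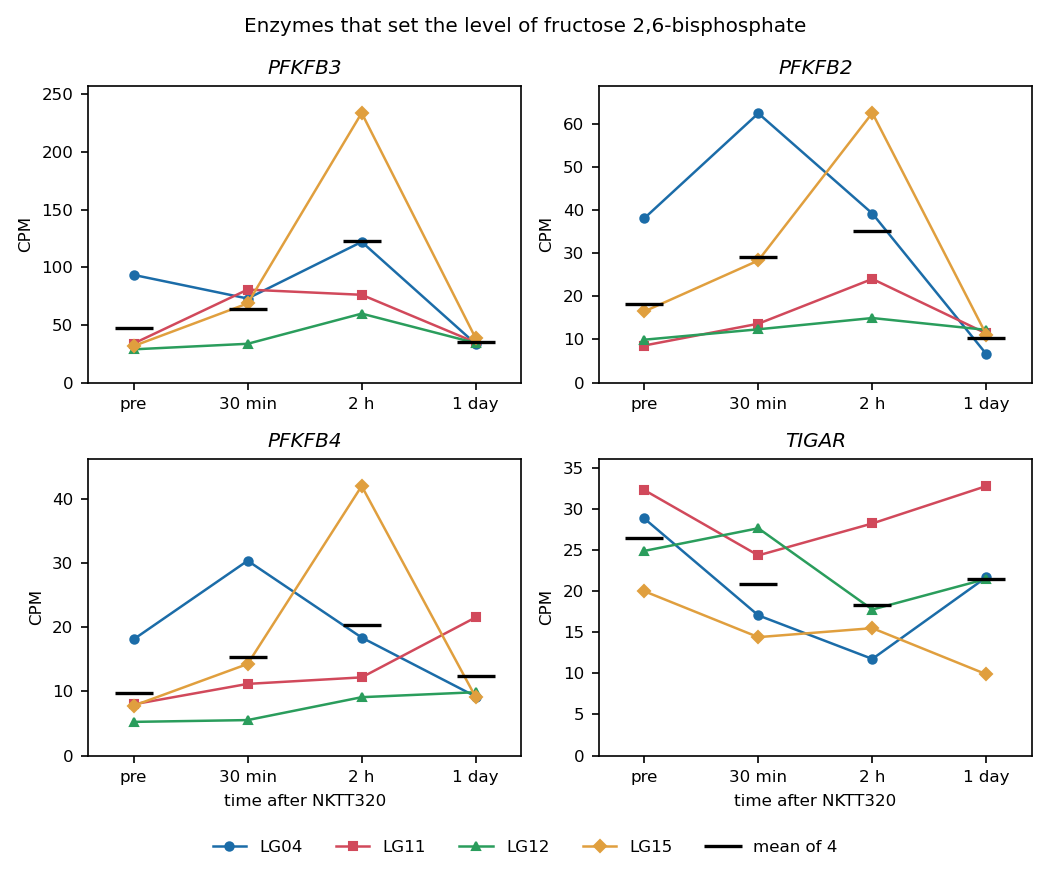
Level (y axis, TMM-scaled CPM, linear from 0) of PFKFB3, PFKFB2, PFKFB4 and TIGAR at pre-treatment, 30 minutes, 2 hours and 1 day (x axis) in 4 animals (lines and symbols), with the mean of 4 as a black bar. At 2 hours the 3 kinase isoforms are higher and TIGAR is lower than before treatment in every animal on this scale. In LG04 PFKFB2 and PFKFB4 hardly differ between these times. Its deposited FPKM, not scaled by TMM, is lower at 2 hours for all 3 isoforms.

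LDHB encodes the other common lactate dehydrogenase subunit, which favours the step back to pyruvate. The LDHA count was 1.40, 1.86, 0.722 and 1.69 times the LDHB count at 2 hours in LG04, LG11, LG12 and LG15, and 1.04, 1.36, 0.499 and 0.716 times before treatment. The ratio was higher in all 4 animals at 2 hours, and like the ratio above it was chosen after its values were seen and has no test. At 1 day it was 0.421 in LG04 and 0.440 in LG15, below their pre-treatment ratios, and 2.14 in LG11 and 0.784 in LG12, above theirs. LDHB itself had a 1 day log2 fold change against pre-treatment of 0.54 ± 0.23 (unadjusted p = 0.0321, adjusted p = 0.296, edgeR), with 309 CPM in LG04 and 260.4 CPM in LG15 at 1 day. Those are the 2 libraries with the most platelet marker RNA (32515 and 26686 CPM) and with low sums of monocyte markers (1782 and 1901 CPM); their part in the ratio was not tested.

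**Figure D4:**
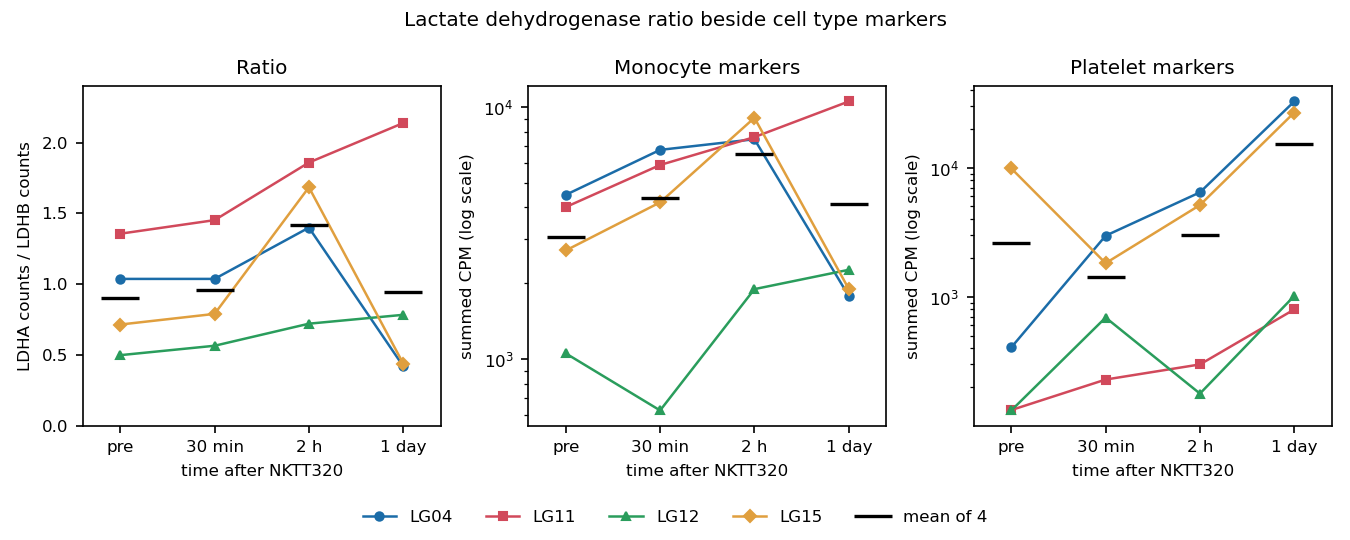
LDHA counts over LDHB counts (left, linear from 0), the summed CPM of 17 monocyte markers (middle, log axis) and of 11 platelet markers (right, log axis) at pre-treatment, 30 minutes, 2 hours and 1 day in 4 animals, with the mean of 4 as a black bar. The ratio is above its pre-treatment value in every animal at 2 hours, and LG04 and LG15 at 1 day have the lowest ratios (0.421 and 0.440).

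Other lists of glucose metabolism were read from the same fit, and edgeR called no gene of them at an adjusted p of 0.05 in any of the 5 comparisons. Of 18 further glycolytic enzymes 14 were tested, with a median log2 fold change of 0.089 at 2 hours and 0.20 at 1 day against pre-treatment. The most counted of them, PKM, the pyruvate kinase of leukocytes, had 0.44 ± 0.27 at 2 hours, higher in 3 of 4 animals. HK1 had 0.50 ± 0.39, higher in 2 of 4 animals, and stood at 1382 CPM in LG04 at 2 hours, where globin took 48.7% of the counts, against 117 to 210.3 CPM in the other animals. The glucose-6-phosphate isomerase GPI had 0.12 ± 0.22 and BPGM, which makes the 2,3-bisphosphoglycerate of red cells, had 0.61 ± 0.69. PFKP, the platelet-type phosphofructokinase, had 0.96 ± 0.32 at 1 day (unadjusted p = 0.00964, adjusted p = 0.179, edgeR); it was named after its values were seen, and its highest 1 day libraries were LG04 (110.4 CPM) and LG15 (107 CPM).

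All 7 enzymes of the pentose phosphate pathway, the branch that makes NADPH and ribose from glucose 6-phosphate, had a fitted value above 0 at 2 hours (52.7% of all genes), with a median of 0.59 and none at an unadjusted p under 0.05. The animals differed, with medians of 0.23 in LG04, -0.20 in LG11, 0.25 in LG12 and 1.09 in LG15, whose 2 hour library was shallow. PGD had 0.87 ± 0.42 and was higher in 4 of 4 animals. TALDO1 had 0.72 ± 0.39 and TKT 0.65 ± 0.50, each higher in 3 of 4 animals. Of 11 further glucose transporters 6 were tested, with a median of 0.34 at 2 hours; SLC2A1 had -0.081 ± 0.37, SLC2A6 0.40 ± 0.47 and SLC2A13 0.036 ± 0.22. Of 17 genes of lactate and pyruvate handling, all tested, the median at 2 hours was 0.011; the monocarboxylate transporter SLC16A1 had 0.53 ± 0.77, its chaperone BSG 0.46 ± 0.86, the pyruvate dehydrogenase kinase PDK1 -0.15 ± 0.31 and DLD, a subunit of the pyruvate dehydrogenase complex, 0.016 ± 0.13.

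Several of the 9 genes are textbook targets of hypoxia-inducible factor 1, so 17 genes of the hypoxia response were read too. Of these 15 were tested and 6 had a value above 0 at 2 hours, with a median of -0.056. HIF1A, the oxygen-regulated subunit of that factor, had 0.44 ± 0.16 at 2 hours (unadjusted p = 0.0150, adjusted p = 0.521, edgeR), higher in 4 of 4 animals, with 191 to 284 CPM at 2 hours and 152 to 193 CPM before treatment. Its partner ARNT had -0.040 ± 0.16. HIF1AN, the hydroxylase that inhibits the factor, had -0.28 ± 0.12 (unadjusted p = 0.0393, adjusted p = 0.639, edgeR), lower in 4 of 4 animals, and BNIP3L, a mitophagy receptor abundant in red-cell precursors, had 0.58 ± 0.60.

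The likeness of courses was described by the correlation of log2 CPM after each animal's mean was subtracted, over 16 libraries that share animals, depth and cell makeup. Among the 9, the closest pairs were ALDOA and GAPDH (r = 0.93), GAPDH and TPI1 (0.88), ENO1 and PGK1 (0.86), ALDOA and TPI1 (0.84) and HK2 and PFKFB3 (0.75). SLC2A3 was nearest to PFKFB3 (0.53) and lowest against GAPDH (-0.34). Among the closest of all genes tested, PFKFB3 had DENND1A (0.93), KIAA0247 and NDUFA10, and HK2 had CSF2RB (0.96), RAB31 and PFKFB4. LDHA had ATP6V1A (0.95), CHST15 and CDC42EP3, SLC2A3 had CIRH1A (0.88), CCDC25 and SLC2A14, and ALDOA had GAPDH and NIT1. For the remaining genes they included ALDOA, VAT1 and POTEF for GAPDH, MRPL20, TNFRSF21 and CAMK1 for TPI1, ARPC2 and ALDH9A1 for PGK1, and PRCP, HLA-DQA1 and LY86 for ENO1.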

How the data were processed

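PBMC RNA of 4 animals at 4 times (16 libraries) was analysed. The deposited per-animal tables hold raw whole-number counts, which the authors did not normalize, and further deposited tables hold FPKM, values that the authors scaled to gene length and library size. FastQC, Trimmomatic, STAR, HTSeq, DESeq, edgeR and the human builds GRCh37/hg19 appear in the submitters' processing notes; their versions and settings (strand, FPKM program) were not given in the sources used here. Macaque reads were thus counted on human gene models, which can undercount diverged genes, and near-identical copies are uncertain. The 24369 entries were summed to 23602 symbols. Of the series-wide columns, 23 of 24 with counts and 15 of 16 with FPKM equalled the per-animal ones; the 2 hour column of LG04 held its 1 day values, so per-animal values were used. The smallest chi-square per gene over 120 pairs of libraries was 5.15, so none was taken for a duplicate.

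The main test was edgeR's (version 4.0.16, R 4.3.3) quasi-likelihood F test on the deposited counts, with TMM, filterByExpr, terms for time and animal (9 residual degrees of freedom), Benjamini-Hochberg adjustment over 11545 genes and a threshold of 0.05. DESeq2 1.42.0, another scaling, no filter, left-out animals or libraries, removal of globin genes and marker terms were alternatives. SE is the log2 fold change divided by the square root of F. The animal term rests on the design: deviations of libraries of the same animal correlated with a median of 0.56 (23 of 24 pairs over 0.1), and for 13 of 16 libraries the best match was from the same animal. The fit was also run on simulated counts that held no animal differences and the same dispersion for every gene. That run cannot show how the fit performs on these data.

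All 9 genes are named, and from each other list the genes past the threshold and up to 4 with the highest mean CPM; any other is said to be chosen after its values were seen. Likeness used the 3 highest correlations (prior count 2). A few genes that these rules select are not reported here. The genes and lists were chosen with earlier results of these data known.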

Additional observations from a re-analysis of the deposited data

Results flagged for a closer look

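In 4 of 36 sets of 4 libraries (each of the 9 genes at each time), 1 library lay far from the other 3. Its gap exceeded the 95% critical value of Dixon's test, which chance gives in about 1 in 20, or 1.8 such sets. The sets are not independent, since the 9 genes share libraries and correlate, so no excess over chance can be read from these counts. PFKFB3 before treatment was 93.3 CPM in LG04, against 28.8 to 33.8 CPM in the other animals. HK2 at 1 day was 26.7 CPM in LG11, with the others at 9.29 to 10.7 CPM. LDHA at 1 day was 281 CPM in LG11, with the others at 115 to 130.1 CPM. GAPDH at 1 day was 248 CPM in LG12, the lowest, with the others at 376 to 392 CPM. LG11 at 1 day also had the highest sum of monocyte markers (10532 CPM), and its part in the HK2 and LDHA values was not tested.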

How the results depend on the processing

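The count of genes past the threshold was 0 of 9 in each comparison under every alternative run except DESeq2, which called 1 (PFKFB3) at 2 hours against pre-treatment, at 1 day against 2 hours and in the joint test. With no replicate block (no animal term) 0 of 9 were called too. The median at 2 hours was -0.00062 with a monocyte term and 0.29 to 0.55 when each animal was left out, the highest without LG11. The median at 1 day was -0.044 with a monocyte term, 0.49 with a platelet term and -0.025 to 0.25 when each animal was left out, the lowest without LG11. Of 117 values per comparison (9 genes, 13 alternatives), 15 turned sign at 30 minutes, 5 at 2 hours and 10 at 1 day against pre-treatment; the cause was not tested.

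At 30 minutes GAPDH was 0.089 with no replicate block, 0.11 without libraries of under 2000000 counts and 0.051 with a platelet term. TPI1 was -0.00056 with DESeq2 size factors, -0.0089 with no filter, -0.013 with globin genes removed and -0.064 with a monocyte term. Leaving out 1 animal at 30 minutes gave -0.056 to 0.35 for ALDOA, -0.19 to 0.084 for GAPDH, -0.014 to 0.17 for ENO1, -0.059 to 0.14 for PGK1, -0.18 to 0.15 for TPI1 and -0.096 to 0.20 for SLC2A3. At 2 hours a monocyte term gave -0.050 for GAPDH, -0.087 for ENO1, -0.085 for PGK1, -0.00062 for TPI1 and -0.19 for HK2. At 1 day ENO1 was -0.044 with a monocyte term, HK2 -0.29 with a monocyte term and -0.079 with no replicate block, PGK1 0.033 without the 1 day library of LG04 and 0.024 with a platelet term, and PFKFB3 0.64 with a platelet term. Leaving out 1 animal at 1 day gave -0.025 to 0.19 for ENO1, -0.17 to 0.045 for PGK1, -0.27 to 0.66 for HK2 and -0.45 to 0.15 for PFKFB3. By the median FPKM in place of the mean, LDHA and TPI1 also changed places at 30 minutes and 1 day. With 4 animals, differences of about 1 SE, as for PGK1 and ENO1, cannot be resolved; depth was not tested as the limit.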
